A study of Mus musculus with 6 samples.

Results

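The genes examined here encode 10 transcription factors of effector CD8 T cells: the T-box factors T-bet (Tbx21) and Eomes, the RUNX factors Runx3 and Runx2, Blimp-1 (Prdm1), the basic helix-loop-helix repressor Bhlhe40, and the basic leucine zipper and interferon regulatory factors Batf, Irf4, Irf8 and Nfil3. They were chosen by name, with earlier results of these data known, and make up 10 of the 23284 gene symbols with read counts. RNA sequencing was done on T cells sorted by flow cytometry from lymph nodes of C3H/HeJ mice, an inbred strain in which autoimmune hair loss is studied. All cells passed a CD3+CD8+CD44+CXCR3+ gate, and were divided by surface NKG2D, the activating receptor that the Klrk1 gene encodes. Each population gave 3 libraries, from 3 separate mice, and libraries of the same number were taken to come from the same mouse. The labels name no treatment and no engineered allele, and do not give disease state, age or sex.

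T-bet and Eomes are related T-box activators that drive the cytotoxic programme of CD8 T cells, with T-bet tied to effector cells and Eomes also to memory cells. Runx3 establishes the CD8 lineage and its cytotoxic genes, while Runx2 is best known as the master regulator of bone formation and has been linked to memory CD8 T cells. Blimp-1 is a repressor that advances terminal effector differentiation in T cells and antibody secretion in B cells. Batf pairs with Irf4 downstream of the T-cell receptor, and Irf8 is best known from dendritic cells and B cells.

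Library depth was 41168816 to 89184611 reads counted to genes. Klrk1 averaged 354 ± 49.7 CPM (read counts over library size, with library size scaled by the TMM method, so that 1 CPM is a fixed small share of all counted reads) in NKG2D+ libraries and 35.9 ± 1.35 CPM in NKG2D- libraries (SD, n = 3 each), a log2 difference of 3.30 (adjusted p = 0.000185, edgeR quasi-likelihood test over 12951 genes). Of the other genes of the sort, Cd3e, Cd8a, Cd8b1 and Cxcr3 were abundant in all 6 libraries and overlapped between the populations. Cd44 stood at 177 to 430 CPM in NKG2D+ libraries and 133 to 137 CPM in NKG2D- libraries, which did not pass the test (adjusted p = 0.130, edgeR). Cd4 stood at 5.38 to 15.2 CPM in NKG2D+ libraries and 10.4 to 10.5 CPM in NKG2D- libraries. Markers of B cells were also present and stood higher in the NKG2D+ libraries, as given beside Irf8.

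Promoter sequences are shown for the RUNX pair, of which Runx2 passed the test and Runx3 did not, and for Prdm1, which had the largest difference of the 10 genes. They are RefSeq windows of the GRCm38.p6 mouse assembly, from 250 bases before to 50 bases after an annotated start, read 5′ to 3′ on the gene's strand. Gene counts do not tell which start was in use, and the reference is not the C3H/HeJ genome. Of the 10 genes, 9 had such a window, 11 windows in all, and Bhlhe40 had none. Capitals mark ACCACA, the reverse complement of the RUNX motif TGTGGT, in the RUNX genes. In Prdm1 they mark a match to TGANTCA, a loose form of the AP-1 motif that allows any centre base. The match reads TGAATCA, whereas the AP-1 motif proper has C or G at its centre.
Runx2 (chr17:44814578-44814877, minus strand): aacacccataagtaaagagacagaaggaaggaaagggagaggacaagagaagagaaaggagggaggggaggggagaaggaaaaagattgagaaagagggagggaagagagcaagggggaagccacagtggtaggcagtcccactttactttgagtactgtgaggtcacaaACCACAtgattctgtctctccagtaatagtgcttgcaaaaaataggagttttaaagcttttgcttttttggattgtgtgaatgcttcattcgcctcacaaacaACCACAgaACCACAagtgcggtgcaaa
Runx3 (chr4:135120395-135120694, plus strand): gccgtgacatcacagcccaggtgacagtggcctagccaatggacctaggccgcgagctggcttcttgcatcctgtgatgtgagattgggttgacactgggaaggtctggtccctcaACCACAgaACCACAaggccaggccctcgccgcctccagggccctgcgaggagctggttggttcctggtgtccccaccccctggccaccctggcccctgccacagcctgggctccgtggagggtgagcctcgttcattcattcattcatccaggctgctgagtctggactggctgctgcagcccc
Prdm1 (chr10:44458699-44458998, minus strand): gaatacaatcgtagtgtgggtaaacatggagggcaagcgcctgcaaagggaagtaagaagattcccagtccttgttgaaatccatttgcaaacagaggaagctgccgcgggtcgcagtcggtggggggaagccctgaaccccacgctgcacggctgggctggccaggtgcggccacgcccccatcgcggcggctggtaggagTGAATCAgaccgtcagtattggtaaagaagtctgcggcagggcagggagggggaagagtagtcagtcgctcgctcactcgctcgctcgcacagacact

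The Runx2 window held ACCACA at 3 places, from -80 to -75, 24 to 29 and 32 to 37 counted from the annotated start. Runx3 held it at 2 places in the window shown, from -134 to -129 and -126 to -121, and its other window held none. The Runx2 window and the Runx3 window shown shared the 18 bases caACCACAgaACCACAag, and of 32851 mouse promoter windows 4 held that stretch, those of Runx1, Runx2, Runx3 and Gm16225. RUNX letters, searched on both strands, occurred in 16.8% of all windows and in 3 of the 11 windows of these genes, the third being that of Batf. The Prdm1 match to the loose letters TGANTCA lay from -48 to -42, and these letters occurred in 7.81% of all windows and in 1 of the 11. An interferon regulatory factor motif, GAAANNGAA, occurred in 8.56% of all windows and in 1 of the 11, that of Eomes, at -154 to -146. The T-box letters AGGTGTGA and GGTGTG, the E-box CACGTG, the Blimp-1 letters AAAGTGAAA and the NFIL3 letters TTACGTAA matched in 0 of the 11 windows, against 1.28%, 19%, 7.15%, 0.594% and 0.119% of all windows. GGTGTG is contained in AGGTGTGA, so these 2 overlap. A match is a run of letters and does not show that a factor binds there.

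Of the 10 factors, 3 were called higher in NKG2D+ cells with group as the only term: Prdm1 by 4.02-fold, Bhlhe40 by 2.39-fold and Runx2 by 1.67-fold. In bulk RNA of this kind, more cells with a transcript and more of it per cell cannot be told apart. None was lower (edgeR, 0 at an unadjusted p under 0.05 and 0 in DESeq2). T-bet and Nfil3 stood higher in every NKG2D+ library than in any NKG2D- library by smaller margins that did not pass the test, Irf4 and Irf8 did so with a wide spread, and Eomes, Runx3 and Batf overlapped between the populations. Calls rest on edgeR's quasi-likelihood test with Benjamini-Hochberg adjustment over all 12951 genes and a threshold of 0.05, which called 1.65% of genes higher and 0.363% lower, 2.02% in all. DESeq2 called 6 of the 10 higher, adding Tbx21, Irf4 and Nfil3, against 7.89% of all genes. With the mouse as a block edgeR called 0 of the 10, and limma-voom also called 0. These fits called 0.44% and 0.463% of all genes higher, so the 3 calls depend on the fit. Every NKG2D+ library lay above every NKG2D- library for 7 of the 10 factors, against 15.1% of all genes. The log2 difference was above 0 for 9 of the 10, against 47.2% of all genes, whose median was -0.01. An unadjusted p under 0.05 with a higher level was found for 7 of the 10, against 12.5% of all genes.

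**Figure D1:**
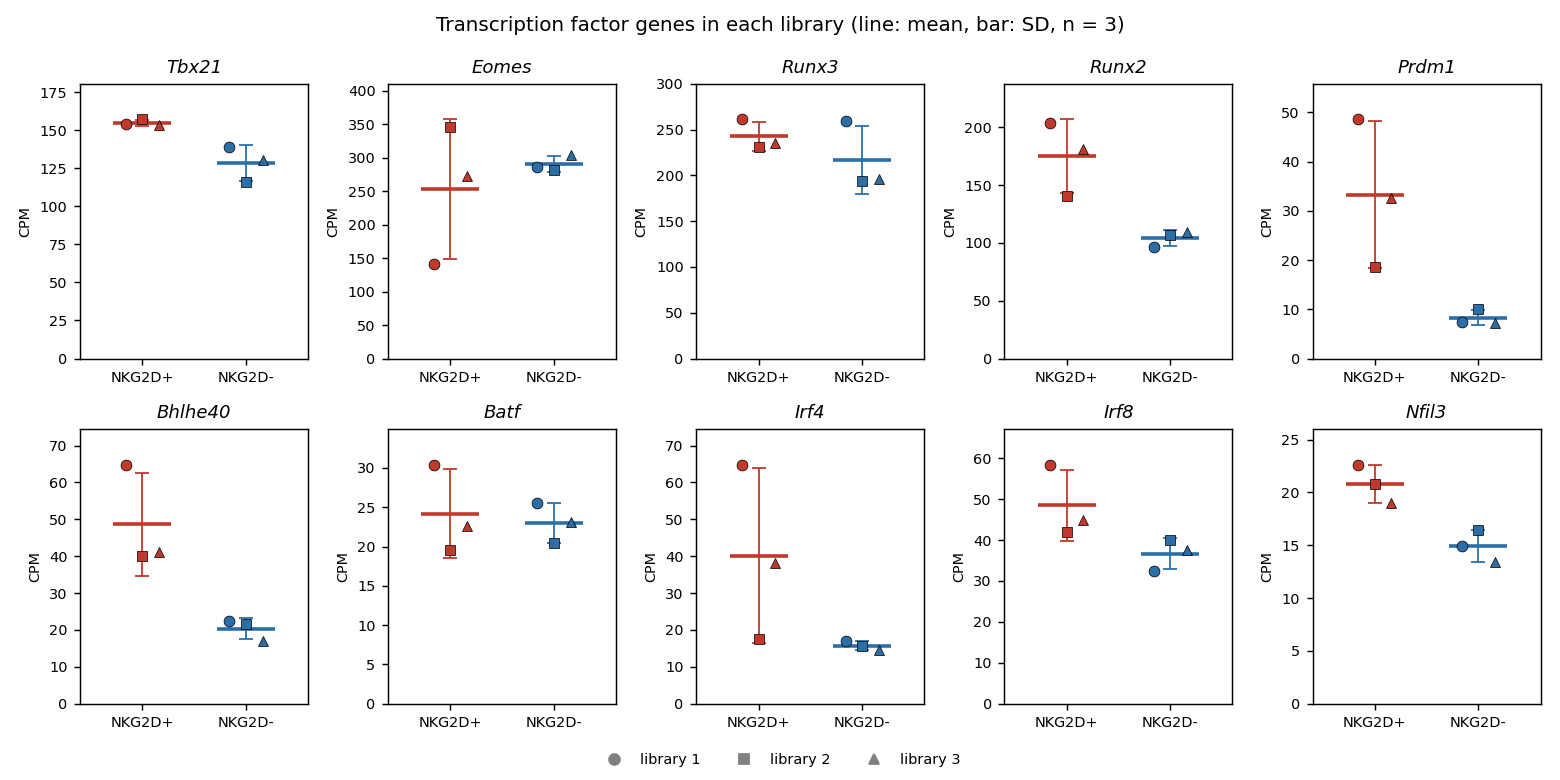
Level of each of the 10 factor genes in CPM (vertical axes, each from 0) in the 3 NKG2D+ and the 3 NKG2D- libraries; points are libraries, thick lines means and bars SD (n = 3). Prdm1, Bhlhe40 and Runx2 lie apart between the populations, while in Eomes the NKG2D+ libraries run from 140 to 346 CPM around NKG2D- libraries at 282 to 304 CPM.

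Tbx21, encoding T-bet, had 154, 157 and 154 CPM in NKG2D+ cells (libraries 1, 2 and 3, an order kept for all genes) and 139, 116 and 130 CPM in NKG2D- cells. The populations did not overlap, and the NKG2D+ libraries lay close together. Means were 155 ± 1.90 CPM in NKG2D+ cells and 129 ± 11.7 CPM in NKG2D- cells (SD, n = 3 each), a log2 difference of 0.27 ± 0.08 (SE) that did not pass the test (adjusted p = 0.126, edgeR). DESeq2 gave an adjusted p of 0.0369 for the same gene.

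Eomes stood at 140, 346 and 272 CPM in NKG2D+ libraries and 287, 282 and 304 CPM in NKG2D- libraries. NKG2D+ library 1 was the lowest and NKG2D+ library 2 the highest of all 6. Means were 253 ± 104 CPM in NKG2D+ cells and 291 ± 11.6 CPM in NKG2D- cells (SD, n = 3 each), and the log2 difference of -0.20 ± 0.29 (SE) was within its error (adjusted p = 0.748, edgeR). Within the 3 mice the log2 difference was -1.03, 0.30 and -0.16, so the sign differed between mice. Without NKG2D+ library 1 the difference was 0.09 (adjusted p = 0.712, edgeR).

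The balance of the T-box factors differed most in that same library. The count ratio of Tbx21 to Eomes was 1.10, 0.454 and 0.565 in NKG2D+ libraries and 0.486, 0.412 and 0.430 in NKG2D- libraries. NKG2D+ library 1 alone had more Tbx21 than Eomes reads, and NKG2D+ library 2 fell among the NKG2D- values. The mean log2 ratio differed by 0.57 (two-sided exact permutation p = 0.2, where 0.1 is the lowest possible for 3 against 3, n = 3 each), and by 0.20 without NKG2D+ library 1. The ratio was higher in NKG2D+ cells in 3 of 3 mice (sign-flip exact permutation p = 0.25, which is as low as 3 pairs can go).

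Most other T-box genes were nearly silent. Of the 15 listed, 3 had enough reads to be tested, and 0 were called (edgeR, 0 also at an unadjusted p under 0.05, and 0 in DESeq2). Mga, which carries a T-box and dimerises with Max, was the most abundant of them, with 184 to 213 CPM in NKG2D+ libraries and 208 to 234 CPM in NKG2D- libraries, and it had the smallest p (log2 difference -0.15, adjusted p = 0.347, edgeR).

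Runx2 was higher in NKG2D+ cells. It stood at 203, 141 and 181 CPM in NKG2D+ libraries, against 96.7, 107 and 110 CPM in NKG2D- libraries, and the lowest NKG2D+ library lay above the highest NKG2D- library. The means, 175 ± 31.8 CPM in NKG2D+ cells and 104 ± 6.90 CPM in NKG2D- cells (SD, n = 3 each), differed by 0.74 ± 0.14 (SE) on the log2 scale (adjusted p = 0.0483, edgeR). All 3 mice showed it, with 1.07, 0.39 and 0.72. With the mouse as a block the difference was 0.73 and the adjusted p 0.102, and with RLE in place of TMM scaling the adjusted p was 0.0503. In GRCm38 annotation the gene overlaps Supt3, counted in the files as Supt3h with 400, 764 and 622 reads in NKG2D+ libraries and 395, 572 and 640 in NKG2D- libraries, beside 13372, 12595 and 13974 reads of Runx2 in NKG2D+ libraries and 3838, 6330 and 7038 in NKG2D- libraries. Whether reads were counted by strand is not stated, so reads of the overlap could fall to either gene.

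Runx3 overlapped between the populations. Its values were 261, 231 and 236 CPM in NKG2D+ libraries and 260, 194 and 196 CPM in NKG2D- libraries, and library 1 was the highest in each population. The means of 243 ± 16.2 CPM in NKG2D+ cells and 217 ± 37.4 CPM in NKG2D- cells (SD, n = 3 each) differed by 0.16 ± 0.13 (SE) on the log2 scale (adjusted p = 0.513, edgeR). The count ratio of Runx2 to Runx3, computed after their values were seen and so given without a test, was 0.779, 0.609 and 0.768 in NKG2D+ libraries and 0.372, 0.552 and 0.559 in NKG2D- libraries, without overlap.

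Runx1 and Cbfb, the third RUNX factor and the partner that all of them need for stable DNA binding, did not pass the test. Runx1 stood at 29.6 to 38.2 CPM in NKG2D+ and 36.2 to 38.0 CPM in NKG2D- libraries, and Cbfb at 192 to 234 CPM in NKG2D+ and 208 to 220 CPM in NKG2D- libraries. Of 8 tested RUNX relatives, partners and Groucho-type corepressors, 0 were called by edgeR and 0 by DESeq2, with 1 at an unadjusted p under 0.05. That gene was the corepressor Cbfa2t3, at 3.65, 2.55 and 2.62 CPM in NKG2D+ and 0.982, 1.99 and 1.64 CPM in NKG2D- libraries (adjusted p = 0.152, edgeR).

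Prdm1 showed the largest difference. Blimp-1 messenger stood at 48.6, 18.6 and 32.7 CPM in NKG2D+ libraries, against 7.43, 10.1 and 7.31 CPM in NKG2D- libraries. The populations did not overlap, but the NKG2D+ values spread 2.61-fold from lowest to highest. Means were 33.3 ± 15.0 CPM in NKG2D+ cells and 8.27 ± 1.56 CPM in NKG2D- cells (SD, n = 3 each), a log2 difference of 2.01 ± 0.35 (SE) (adjusted p = 0.0443, edgeR), resting on 295 to 3193 reads a library. Within mice the log2 differences were 2.71, 0.89 and 2.16. The mouse block gave 1.92 with an adjusted p of 0.104, and a fit without the filter on low counts gave 2.00 with an adjusted p of 0.08.

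Set against T-bet, the factor with which Blimp-1 is usually read in effector cells, Prdm1 stood higher in NKG2D+ libraries. Their ratio rests on the read counts behind the values above and adds no separate support. The count ratio of Prdm1 to Tbx21 was 0.315, 0.118 and 0.212 in NKG2D+ libraries and 0.0533, 0.0868 and 0.0561 in NKG2D- libraries. Every NKG2D+ ratio was above every NKG2D- ratio, with NKG2D+ library 2 nearest to them. The mean log2 ratio was higher by 1.64 in NKG2D+ cells (two-sided exact permutation p = 0.1, the lowest possible, n = 3 each), and it was higher in 3 of 3 mice (sign-flip exact permutation p = 0.25, as low as 3 pairs can go).

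Of the other PR-domain genes listed, 7 were tested and 0 called (edgeR, 0 at an unadjusted p under 0.05, 0 in DESeq2). The smallest p was that of Prdm11, at 5.26 to 6.24 CPM in NKG2D+ and 4.26 to 5.19 CPM in NKG2D- libraries (log2 difference 0.24, adjusted p = 0.424, edgeR). Prdm2, the most abundant of them, differed by -0.02 on the log2 scale (adjusted p = 0.884, edgeR).

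**Figure D2:**
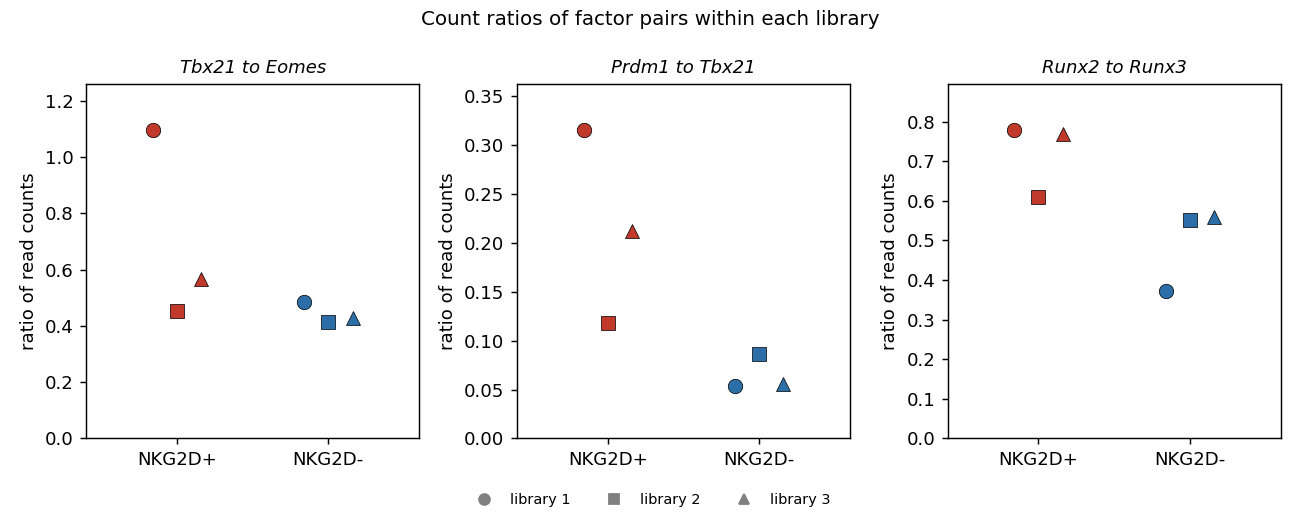
Ratio of read counts of Tbx21 to Eomes, Prdm1 to Tbx21 and Runx2 to Runx3 (vertical axes, from 0) in each NKG2D+ and NKG2D- library. NKG2D+ library 1 stands apart in Tbx21 to Eomes at 1.10, while the other NKG2D+ libraries, at 0.454 and 0.565, lie near the NKG2D- libraries at 0.412 to 0.486.

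Bhlhe40 was higher in NKG2D+ cells. This repressor, which supports cytokine production by activated T cells, stood at 64.8, 40.0 and 41.2 CPM in NKG2D+ libraries, against 22.3, 21.7 and 17.0 CPM in NKG2D- libraries. The lowest NKG2D+ library was well above the highest NKG2D- library. Means were 48.7 ± 14.0 CPM in NKG2D+ cells and 20.3 ± 2.89 CPM in NKG2D- cells (SD, n = 3 each), a log2 difference of 1.26 ± 0.21 (SE) (adjusted p = 0.0391, edgeR), with 1.54, 0.88 and 1.27 within mice. Under the mouse block the difference was 1.23 and the adjusted p 0.0558. A non-coding gene that overlaps it in GRCm38 annotation, 0610040F04Rik, had at most 5 reads in any library.

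Nfil3, which encodes a leucine zipper repressor needed for NK cell development, lay at 22.6, 20.8 and 19.0 CPM in NKG2D+ libraries and 15.0, 16.5 and 13.4 CPM in NKG2D- libraries. The populations did not overlap. The means of 20.8 ± 1.8 CPM in NKG2D+ cells and 15.0 ± 1.54 CPM in NKG2D- cells (SD, n = 3 each) differed by 0.48 ± 0.11 (SE) on the log2 scale, which did not pass the test in edgeR (adjusted p = 0.0851) and passed it in DESeq2 (adjusted p = 0.0072).

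Nfil3 and Bhlhe40 both act on the circadian clock, and 11 clock genes and relatives were tested. None was called by edgeR, 5 of them had an unadjusted p under 0.05 with a higher level in NKG2D+ cells, and DESeq2 called 4 higher: Hlf, Per3, Rora and Tef. The matching shares of all genes were 12.5% at an unadjusted p and 7.89% in DESeq2. Rora, a nuclear receptor of clock and innate-like lymphocyte genes, had the smallest p, at 28.5, 4.51 and 11.5 CPM in NKG2D+ libraries and 2.39, 1.81 and 1.62 CPM in NKG2D- libraries (log2 difference 2.94, adjusted p = 0.0758, edgeR). All 3 NKG2D+ libraries were above the NKG2D- libraries for Rora, with library 1 far above the rest.

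Batf overlapped between the populations, at 30.4, 19.5 and 22.6 CPM in NKG2D+ libraries and 25.6, 20.4 and 23.1 CPM in NKG2D- libraries. In each population library 1 was the highest and library 2 the lowest. The means of 24.2 ± 5.61 CPM in NKG2D+ cells and 23.0 ± 2.56 CPM in NKG2D- cells (SD, n = 3 each) differed by 0.07 ± 0.17 (SE) on the log2 scale (adjusted p = 0.857, edgeR). Of 6 tested AP-1 partners 0 were called (edgeR, 0 at an unadjusted p under 0.05, 0 in DESeq2), and Batf2 and Batf3 had too few reads to test. Jun, Junb, Jund, Fos and Fosb, immediate-early genes, were highest in library 1 and lowest in library 3 of each population. Fos, for example, stood at 399, 150 and 88.2 CPM in NKG2D+ libraries and 272, 149 and 78.1 CPM in NKG2D- libraries. Fosl2 had the smallest p of them, at 34.6 to 47.2 CPM in NKG2D+ and 35.4 to 37.9 CPM in NKG2D- libraries (adjusted p = 0.34, edgeR).

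Irf4, which rises with the strength of T-cell receptor signalling, stood at 64.8, 17.6 and 38.1 CPM in NKG2D+ libraries, against 17.0, 15.7 and 14.5 CPM in NKG2D- libraries. NKG2D+ library 2 lay just above the NKG2D- libraries, and NKG2D+ library 1 was 3.69 times as high as NKG2D+ library 2. Means were 40.2 ± 23.7 CPM in NKG2D+ cells and 15.7 ± 1.24 CPM in NKG2D- cells (SD, n = 3 each), and the log2 difference of 1.35 ± 0.42 (SE) did not pass the test (adjusted p = 0.142, edgeR). Within mice it was 1.93, 0.16 and 1.39. Without NKG2D+ library 1 the difference was 0.82 (adjusted p = 0.240, edgeR), and without both libraries of mouse 1 it was 0.88 (adjusted p = 0.346, edgeR). Without NKG2D+ library 2 the difference was 1.71 with an adjusted p of 0.00872, and DESeq2 on all 6 libraries gave an adjusted p of 0.00555.

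Irf8 lay at 58.4, 42.1 and 44.9 CPM in NKG2D+ libraries and 32.5, 40.0 and 37.6 CPM in NKG2D- libraries. The populations did not overlap, though NKG2D+ library 2 and NKG2D- library 2 were close. Means were 48.5 ± 8.75 CPM in NKG2D+ cells and 36.7 ± 3.84 CPM in NKG2D- cells (SD, n = 3 each), a log2 difference of 0.40 ± 0.14 (SE) that did not pass the test (adjusted p = 0.176, edgeR). It was 0.24 without NKG2D+ library 1 (adjusted p = 0.243, edgeR) and 0.16 without both libraries of mouse 1 (adjusted p = 0.332, edgeR). Of 9 other tested interferon regulatory factor genes and their binding proteins 0 were called by edgeR, with 1 at an unadjusted p under 0.05, and DESeq2 called that one higher: Irf5, a factor of B cells and macrophages, at 17.7, 6.36 and 8.63 CPM in NKG2D+ and 2.54, 5.76 and 4.66 CPM in NKG2D- libraries (log2 difference 1.33, adjusted p = 0.164, edgeR).

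B cells express Irf8, and their markers also stood higher in NKG2D+ libraries. All 14 B-cell markers tested, among them Ms4a1 and Cd79a, had log2 differences above 0, from 0.95 to 1.75. For 13 of the 14 every NKG2D+ library lay above every NKG2D- library, against 15.1% of all genes. EdgeR called 0 of them, with 12 higher at an unadjusted p under 0.05, against 12.5% of all genes. With the mouse as a block 1 was higher at an unadjusted p under 0.05, against 13.6%. With 1 library left out, this count ran from 3 without NKG2D- library 3 to 13 without NKG2D- library 2. The shares of all genes were 8.42% and 10.4%. DESeq2 on all 6 libraries called 7 of the markers higher, against 7.89%. Their summed level was 668, 420 and 469 CPM in NKG2D+ libraries and 117, 309 and 256 CPM in NKG2D- libraries. The 6 libraries stood in the same order for Irf8 as for this sum, which held for Irf8 alone among the 10 factors. The others had between 1 and 4 libraries at the same rank. The part of B-cell transcripts in the values of Irf8, Irf5 and the other factors was not tested.

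Plasma cells and activated B cells make Prdm1 and Irf4. The 4 plasma-cell markers in the files summed to 78.8, 38.2 and 53.7 CPM in NKG2D+ libraries and 38.2, 33.6 and 35.5 CPM in NKG2D- libraries. Of 3 tested, edgeR called 0, with 1 at an unadjusted p under 0.05, and DESeq2 called Xbp1 higher. Xbp1, a factor of secretory cells, stood at 77.2, 37.1 and 50.1 CPM in NKG2D+ libraries and 37.4, 32.3 and 32.0 CPM in NKG2D- libraries, overlapping between them. Igj, the antibody joining chain, stood at 1.02, 0.760 and 3.19 CPM in NKG2D+ libraries and 0.529, 0.896 and 3.15 CPM in NKG2D- libraries. Sdc1 stood at 0.346 to 0.639 CPM in NKG2D+ libraries and 0.234 to 0.355 CPM in NKG2D- libraries, and Tnfrsf17 was under 0.1 CPM in every library. The part of plasma cells in the values of Prdm1 and Irf4 was not tested. The 9 dendritic-cell markers summed to 160 to 172 CPM in NKG2D+ libraries and 176 to 184 CPM in NKG2D- libraries. Bst2 and Ly75 made up most of that sum. EdgeR called 0, with 3 higher (Itgax, Xcr1 and Zbtb46) and 3 lower (Clec9a, Siglech and Ly75) at an unadjusted p under 0.05. DESeq2 called 2 higher, Itgax and Xcr1. Xcr1 stood at 14.6, 4.18 and 9.11 CPM in NKG2D+ libraries and 1.86, 2.21 and 2.64 CPM in NKG2D- libraries. Itgax stood at 2.81, 4.29 and 3.87 CPM in NKG2D+ libraries and 0.504, 1.52 and 0.717 CPM in NKG2D- libraries. Zbtb46 and Flt3, which define classical dendritic cells and their precursors, were at most 1.06 and 1.42 CPM in any library. NK-cell and innate lymphoid markers, 5 genes, summed to 6.14, 19.5 and 16.5 CPM in NKG2D+ and 2.49, 3.84 and 4.37 CPM in NKG2D- libraries. Of 4 tested, edgeR called 1 higher, the lectin receptor Klre1, 3 were higher at an unadjusted p under 0.05, and DESeq2 called Klre1. The fits with the mouse as a block, without the filter on low counts and in limma-voom called 0 of them. Ncr1, the defining NK-cell receptor, stood at 0.532, 0.570 and 0.596 CPM in NKG2D+ libraries and 0.126, 0.406 and 0.203 CPM in NKG2D- libraries, without overlap. Klrb1c, the NK1.1 gene, stood at 2.40, 5.12 and 3.99 CPM in NKG2D+ libraries and 1.34, 2.35 and 2.62 CPM in NKG2D- libraries. Their part in the values of Tbx21, Eomes and Nfil3, which NK cells also express, was not tested.

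The remaining marker lists covered T cells of other lineages and myeloid cells. The 8 CD8 T-cell markers summed to 4783 to 6332 CPM in NKG2D+ libraries and 4917 to 5315 CPM in NKG2D- libraries (edgeR called 0, 1 was lower at an unadjusted p under 0.05, DESeq2 called 0). The 5 CD4 and regulatory T-cell markers summed to 46.9 to 136 CPM in NKG2D+ libraries and 64.1 to 74.4 CPM in NKG2D- libraries. EdgeR called 0 of these, with 2 higher and 1 lower at an unadjusted p under 0.05, which were also those called by DESeq2, Cd40lg and Zbtb7b higher and Foxp3 lower. The 10 myeloid markers summed to 18.3 to 31.4 CPM in NKG2D+ libraries and 14.4 to 19.7 CPM in NKG2D- libraries, with 0 called by edgeR, 2 higher at an unadjusted p under 0.05, and Lyz2 called by DESeq2. The 4 gamma-delta and NKT-cell markers summed to 0.916 to 1.76 CPM in NKG2D+ libraries and 0.529 to 0.639 CPM in NKG2D- libraries, with 0 called by edgeR or DESeq2 and 1 at an unadjusted p under 0.05. The part of such cells in the factors was not tested. Beside the counts of all these marker lists stand the shares of all genes. At an unadjusted p under 0.05, 12.5% were higher and 8.62% lower, and DESeq2 called 7.89% higher and 3.47% lower.

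**Figure D3:**
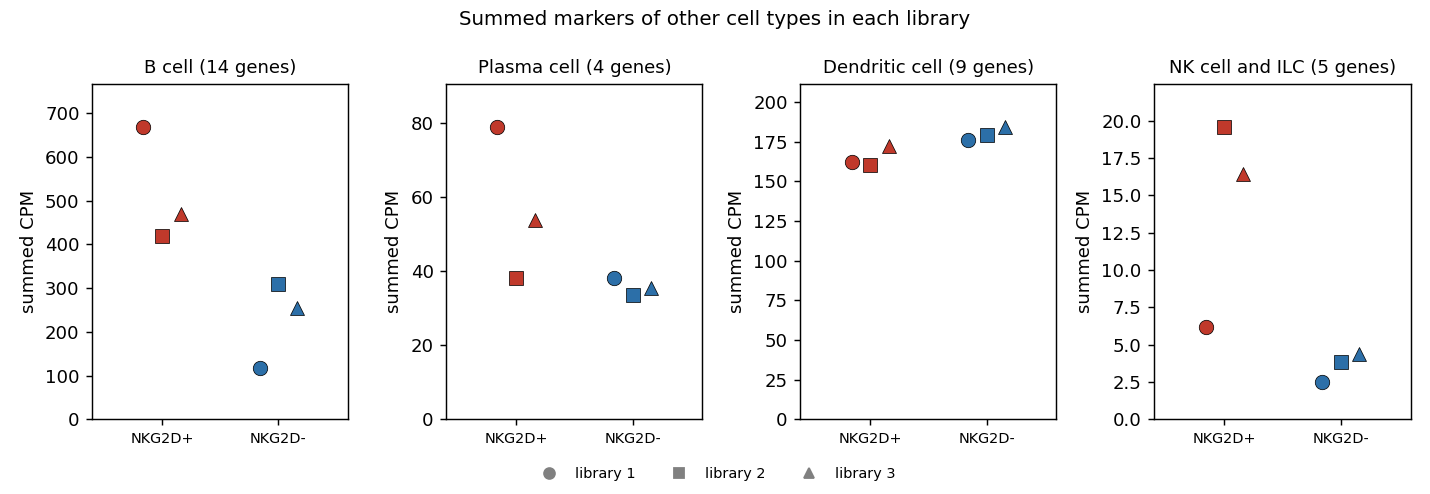
Summed CPM of marker genes of B cells, plasma cells, dendritic cells and NK cells or innate lymphoid cells (vertical axes, from 0) in each NKG2D+ and NKG2D- library. The B-cell sum is 420 to 668 CPM in NKG2D+ libraries, all above the NKG2D- libraries at 117 to 309 CPM.

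For most of the 10 factors the NKG2D+ libraries differed in a similar order. Library 1 was the highest NKG2D+ library for 8 of the 10 factors, the exceptions being Tbx21 and Eomes, in which library 2 was the highest. Library 2 was the lowest NKG2D+ library for 7 of the 10. Of the 3 log2 differences within mice, NKG2D+ over NKG2D- with the sign kept, that of mouse 1 was the highest for 7 of the 10. For Tbx21, Runx3 and Eomes it was the lowest, at 0.14, 0.0067 and -1.03. The coefficient of variation was larger in NKG2D+ than in NKG2D- libraries for 7 of the 10, and for Irf4 was 59.0% in NKG2D+ and 7.86% in NKG2D- libraries. It was 45.0% in NKG2D+ and 18.9% in NKG2D- libraries for Prdm1, and 41.2% in NKG2D+ and 3.98% in NKG2D- libraries for Eomes. Tbx21 went the other way, with 1.23% in NKG2D+ and 9.12% in NKG2D- libraries. The shares of all genes with these orders were not computed, so the counts cannot be read as particular to the factors. Among genes of the sort, Klrk1, Cd3e, Cd8a, Cd8b1, Cd44 and Cxcr3 were also highest in library 1 of the NKG2D+ libraries.

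Calls on the factors depended on which libraries were kept. Without NKG2D+ library 1 the same 3 genes passed, with log2 differences of 1.63 for Prdm1, 1.00 for Bhlhe40 and 0.62 for Runx2 and adjusted p-values of 0.0247, 0.00839 and 0.0272 (edgeR). Without NKG2D+ library 2, 4 factors passed, Irf4 being the fourth. Without NKG2D+ library 3 none passed, nor without NKG2D- library 1, 2 or 3, with adjusted p-values of 0.108, 0.170, 0.142 and 0.201 for Bhlhe40, although each of the 3 log2 differences kept its sign and stayed at 0.62 or more in all 6 of these fits. In each of these 4 fits 6 or 7 of the 10 had an unadjusted p under 0.05, against 15.6% of all genes without NKG2D+ library 3 and 14.9%, 16.3% and 13% without NKG2D- library 1, 2 or 3. The share of all genes called higher was 3.22% without NKG2D+ library 1, 6.86% without NKG2D+ library 2 and 0.0841% without NKG2D+ library 3. It was 0.113%, 0.0679% and 0.0303% without NKG2D- library 1, 2 or 3. Leaving out both libraries of a mouse kept 1 call without mouse 1 (Bhlhe40), 3 without mouse 2 (Runx2, Prdm1 and Irf4) and 0 without mouse 3, where the test called 1.36%, 2.45% and 0% of all genes higher. With the mouse as a block 0 of the 10 passed, against 0.44% of all genes called higher, and 6 had an unadjusted p under 0.05, against 25.5% of all genes in either direction. In limma-voom likewise 0 passed, against 0.463%, and 6 had an unadjusted p under 0.05, against 19.6%.

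**Figure D4:**
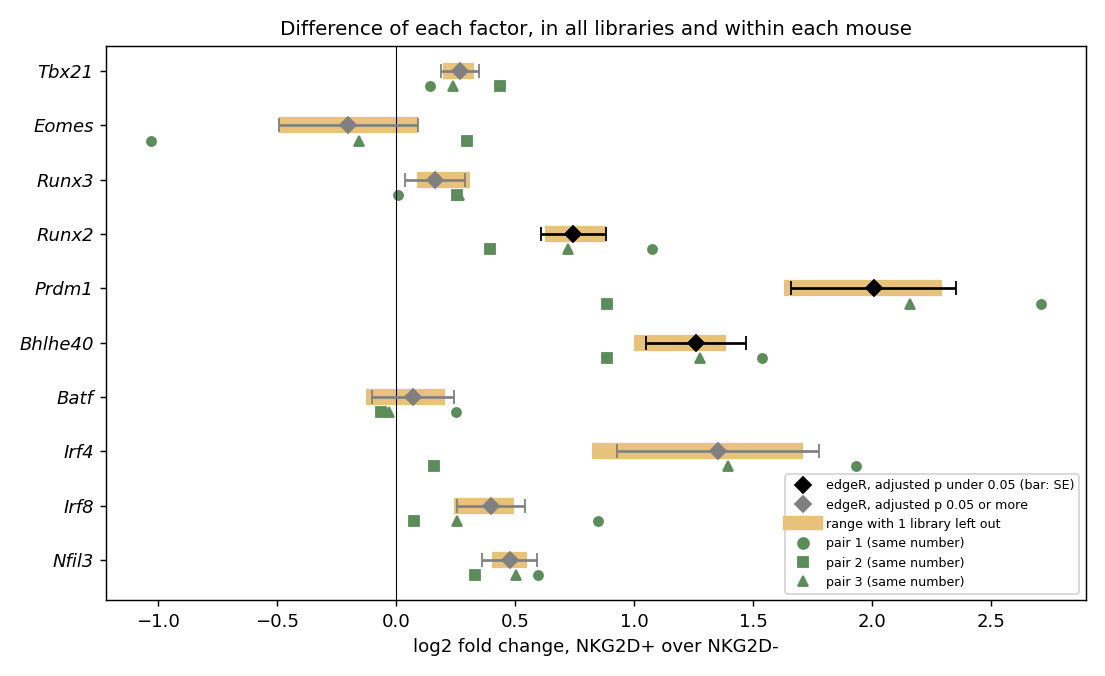
Log2 fold change of each factor, NKG2D+ over NKG2D- (horizontal axis), as a diamond with its SE, black where the adjusted p is under 0.05; the band spans the values with 1 library left out and green symbols are the differences within each same-numbered pair. Prdm1, Bhlhe40 and Runx2 are above 0 in all 3 pairs, from 0.39 to 2.71, while Eomes runs from -1.03 to 0.30.

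Levels of the 10 genes can be set against each other only per length. Divided by the length of their exons in kilobases (GENCODE M21 union of exons), Eomes, Tbx21 and Runx3 were the most abundant, at 68.5, 62.3 and 58.1 CPM per kilobase in NKG2D+ libraries and 78.7, 51.7 and 51.9 in NKG2D- libraries. Tbx21 and Runx3 were within their spread in NKG2D- libraries, and all 3 overlapped in NKG2D+ libraries. Batf and Runx2 came next, at 25.3 and 24.7 CPM per kilobase in NKG2D+ libraries, which is within their spread, and 24.1 and 14.7 in NKG2D- libraries. Bhlhe40, Irf8, Nfil3 and Irf4 followed at 15.4, 14.1, 10.3 and 8.43 CPM per kilobase in NKG2D+ libraries and 6.42, 10.7, 7.38 and 3.30 in NKG2D- libraries. Among these neighbours the libraries overlapped between Bhlhe40 and Irf8, Nfil3 and Irf4, and Irf4 and Prdm1 in NKG2D+ cells, and between Nfil3 and Bhlhe40 in NKG2D- cells. Prdm1 was the least abundant in both, at 6.20 ± 2.79 CPM per kilobase in NKG2D+ cells and 1.54 ± 0.291 in NKG2D- cells (SD, n = 3 each). Gene models of the build used for counting may differ from these in length.

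Genes that T-bet, Eomes or Runx3 are known to induce lay above 0 in their log2 difference for 17 of the 19 tested. By edgeR 5 were higher in NKG2D+ cells, 13 had an unadjusted p under 0.05 with a higher level and 0 with a lower one, and DESeq2 called 12 higher and 0 lower. Of all genes, edgeR called 1.65% higher, 12.5% were higher at an unadjusted p under 0.05, and DESeq2 called 7.89% higher. The median log2 difference was 1.21 (all genes -0.01). Fasl, the death ligand, stood at 41.7, 45.1 and 50.6 CPM in NKG2D+ libraries and 12.5, 16.7 and 18.4 CPM in NKG2D- libraries (log2 difference 1.53 ± 0.15 SE, adjusted p = 0.0151, edgeR). The chemokine Ccl5 averaged 1315 ± 353 CPM in NKG2D+ libraries and 463 ± 26.1 CPM in NKG2D- libraries (SD, n = 3 each; log2 difference 1.51, adjusted p = 0.0196, edgeR). Zeb2, a repressor that acts with T-bet, rose by 2.09 ± 0.31 (SE) on the log2 scale (adjusted p = 0.03, edgeR). The granule protease Gzmb stood at 469, 112 and 458 CPM in NKG2D+ libraries and 22.2, 10.1 and 20.4 CPM in NKG2D- libraries, a log2 difference of 4.30 (adjusted p = 0.0311, edgeR). The other called gene was the fractalkine receptor Cx3cr1, with 67.9, 10.8 and 23.4 CPM in NKG2D+ libraries and 1.23, 0.625 and 0.374 CPM in NKG2D- libraries (adjusted p = 0.0341, edgeR).

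Several classic targets did not pass the test. Perforin (Prf1) stood at 204, 235 and 222 CPM in NKG2D+ libraries and 235, 178 and 198 CPM in NKG2D- libraries, with overlap. Il2rb, the IL-2 and IL-15 receptor chain, averaged 1359 ± 19.4 CPM in NKG2D+ libraries and 1360 ± 247 CPM in NKG2D- libraries (SD, n = 3 each). Klrg1, a marker of terminal effector cells, was at most 0.359 CPM in any library, and Cxcr3, used in the sort, differed by 0.19 on the log2 scale (adjusted p = 0.448, edgeR). Ifng stood at 127, 31.6 and 42.9 CPM in NKG2D+ and 17.4, 12.8 and 8.81 CPM in NKG2D- libraries without overlap (log2 difference 2.37, adjusted p = 0.0851, edgeR). DESeq2 called Ifng higher. With 1 library left out, edgeR called it higher without NKG2D+ library 1 or 2 and not in the other such fits. Prf1, Il2rb, Klrg1 and Ifng are shown as familiar targets and were picked after their values were seen.

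Genes that Blimp-1 is known to repress went both ways. Of 15 tested, edgeR called 2 lower and 0 higher, 8 had an unadjusted p under 0.05 with a lower level and 4 with a higher one, and DESeq2 called 8 lower and 2 higher, Il2 and Pax5. Over all genes, 8.62% had an unadjusted p under 0.05 with a lower level and 12.5% with a higher one, and DESeq2 called 3.47% lower and 7.89% higher. The median log2 difference was -0.60. The follicular homing receptor Cxcr5 stood at 43.4, 44.0 and 46.0 CPM in NKG2D+ libraries and 67.1, 64.5 and 79.2 CPM in NKG2D- libraries (-0.66 ± 0.09 SE, adjusted p = 0.0266, edgeR). Id3, an inhibitor of E proteins kept in memory-type cells, stood at 21.6, 14.8 and 18.6 CPM in NKG2D+ and 47.9, 30.0 and 38.9 CPM in NKG2D- libraries (-1.09 ± 0.20 SE, adjusted p = 0.0498, edgeR). Its adjusted p was 0.0521 with RLE scaling in edgeR and 0.0780 in limma-voom. Without NKG2D+ library 3 it was 0.166, and without NKG2D- library 1, 2 or 3 it was 0.194, 0.0965 and 0.221 (edgeR). The members with a difference above 0 included the B-cell factors Pax5, Ciita and Spib, at 1.51, 1.35 and 1.47, beside the B-cell marker sums given above, whose part here was not tested.

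Of 16 cytokine receptors and STAT factors upstream of these genes, edgeR called 1 lower and 0 higher. At an unadjusted p under 0.05 there were 3 each way, against 12.5% of all genes higher and 8.62% lower. DESeq2 called 1 each way, Il4ra lower and Il12rb1 higher, against 3.47% of all genes lower and 7.89% higher. Il4ra, the IL-4 receptor chain, stood at 250, 286 and 277 CPM in NKG2D+ libraries and 398, 405 and 401 CPM in NKG2D- libraries (-0.57 ± 0.07 SE, adjusted p = 0.022, edgeR). Il12rb1, a receptor chain for IL-12, an inducer of T-bet, lay at 48.6, 44.0 and 46.1 CPM in NKG2D+ and 23.7, 33.2 and 30.6 CPM in NKG2D- libraries, without overlap and short of the threshold (adjusted p = 0.054, edgeR). Of 10 naive and memory factors, edgeR called Id3 lower and 0 higher, 7 had an unadjusted p under 0.05 with a lower level and 0 with a higher one, and DESeq2 called 6 lower and 0 higher, against the same 8.62% and 3.47% of all genes lower. The median log2 difference was -0.57. Tcf7, Id3, Bach2, Bcl6 and Klf2 are also among the listed genes repressed by Blimp-1. The lists are therefore not separate, and the Id3 call is counted in both. Tcf7, which encodes the factor TCF-1 of stem-like cells, lay at 498, 786 and 617 CPM in NKG2D+ and 1032, 938 and 918 CPM in NKG2D- libraries without overlap (-0.60, adjusted p = 0.105, edgeR). DESeq2 called Tcf7 lower. Il12rb1 and Tcf7 were chosen after their values were seen.

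**Figure D5:**
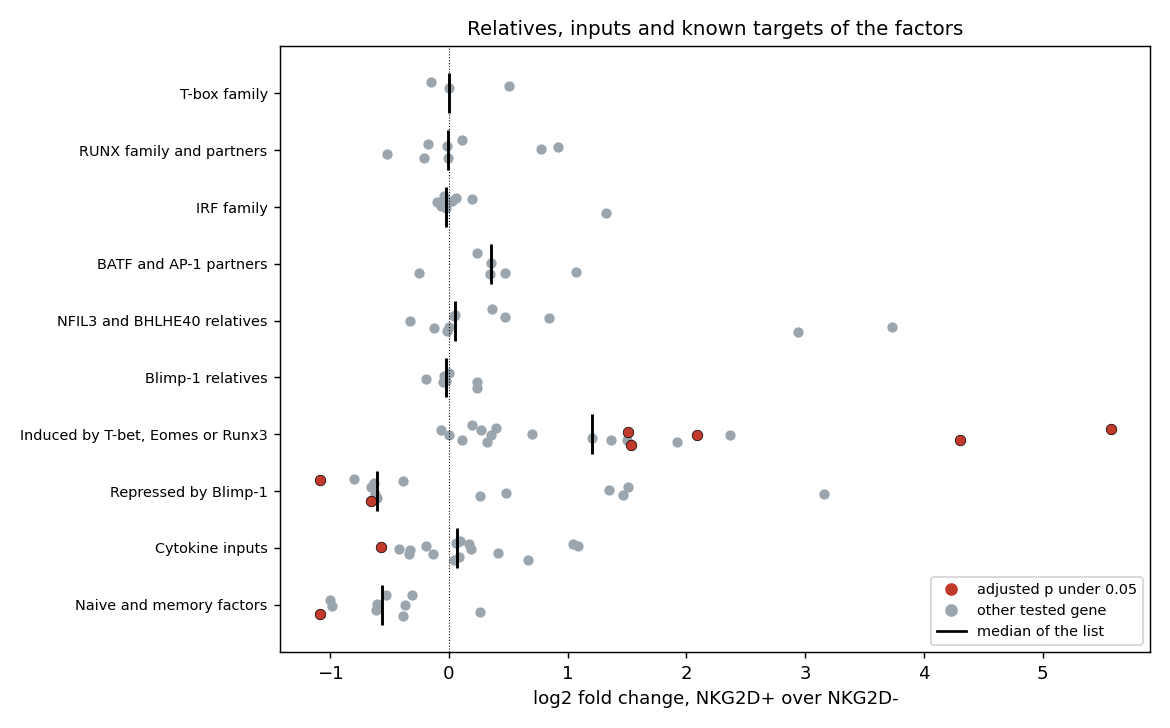
Log2 fold change, NKG2D+ over NKG2D- (horizontal axis), of the tested genes of 6 lists of relatives and 4 lists of targets, inputs and memory factors; red points have an adjusted p under 0.05 and black lines are list medians. The medians of the 6 lists of relatives lie from -0.02 to 0.35 with 0 of 44 genes called by edgeR (7 at an unadjusted p under 0.05, 5 called by DESeq2), while the list induced by T-bet, Eomes or Runx3 has its median at 1.21 and the list repressed by Blimp-1 at -0.60. The 7 and the 5 are all higher in NKG2D+ cells, against 12.5% and 7.89% of all genes.

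With the mouse as a block, 3 of the 5 called induced genes still passed (Fasl, Gzmb and Cx3cr1), as did Id3, with adjusted p-values of 0.0158 for Fasl, 0.0209 for Gzmb and 0.0158 for Id3 (edgeR). Ccl5, Zeb2, Cxcr5 and Il4ra did not, at 0.0597, 0.0931, 0.0518 and 0.0554. Without NKG2D+ library 3, or without NKG2D- library 2 or 3, 0 genes of the 10 lists passed in edgeR, while 12, 12 and 13 of the induced genes had an unadjusted p under 0.05 with a higher level. The shares of all genes were 10.4%, 10.4% and 8.42%. Without NKG2D- library 1, Fasl alone of the listed genes had an adjusted p under 0.05 (edgeR). In that fit 12 of the induced genes were higher at an unadjusted p under 0.05, against 9.52% of all genes.

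The genes whose levels ran most like the lead factors over the 6 libraries, among 9451 genes with a mean of at least 5 CPM, were named by Pearson's r of log2(CPM + 1). For Tbx21 these were Mxd1, Bard1 and 1110018G07Rik, with r of 0.976, 0.975 and 0.970. Eomes ran with Agbl5, 1700025G04Rik and Dmrta1 at 0.999, 0.997 and 0.997, each of which had its lowest value in NKG2D+ library 1. Prdm1 ran with Gsg2, 4831426I19Rik and Msh5 at 0.999, 0.998 and 0.998, each highest in NKG2D+ library 1. With 6 libraries in 2 populations and the highest or lowest value in 1 library, many genes reach such values, and 373 genes had an r above 0.95 with Prdm1, 194 with Eomes and 12 with Tbx21.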

How the data were processed

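RNA of sorted lymph node T cells was extracted on columns with DNase treatment and made into indexed libraries with a TruSeq kit, as the labels' protocols state. Each deposited file gives whole-number read counts for the gene symbols of 1 library, and the authors applied no normalisation to them. CASAVA 1.8.2, TopHat2 2.0.4 and the mm9 genome appear in the submitters' processing notes, and the sources used here do not name the counter, annotation or strand setting. The 5 summary entries of each file, which name no gene, were left out of library sizes (no feature 14.01% to 15.87%, several genes 0.715% to 0.836%, several places 19.71% to 26.19% of reads).

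Counts were tested in R 4.3.3 with edgeR 4.0.16 (TMM, filterByExpr at its defaults of at least 10 counts and a total of 15, robust quasi-likelihood fit in legacy mode, group as the only term), leaving 12951 genes, 10 of 10 factor genes among them. P-values were adjusted by Benjamini-Hochberg over all of them, and the SE of a log2 difference is its size over the square root of F. The alternatives were RLE scaling, no filter, a mouse block, DESeq2 1.42.0, limma-voom 3.58.1, and leaving out libraries or mice. The test was checked on simulated counts with known fold changes. It recovered 40% of 1.5-fold, 90% of 2-fold and 96% of 4-fold changes, with 11 false among 174 called genes. Changes under 1.5-fold were not simulated. The changed genes were drawn from the better counted ones, and each gene had the typical spread for its level. No mouse effect and no outlying library was simulated. These shares therefore do not tell how often such changes are found in the real counts. Count ratios were tested by exact permutation over libraries.

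The study's design text says that cells came from 3 mice. Libraries of the same replicate number were taken as pairs from 1 mouse, which no label states. Values given within mice, fits without a mouse and the mouse block all rest on that. Over genes, log2(CPM + 1) less the mean of the population had, for the libraries of each number, r = 0.26, 0.20 and 0.42. Between libraries of different number r ran from -0.24 to 0.02. Deviations from a shared mean are not independent, so these values are a description. Libraries of a population differed beyond counting noise (chi-square per degree of freedom 40.7 to 235).

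The factor genes and the 18 gene lists were chosen with earlier results of these data known. From each list the called genes, up to 4 by smallest p, are named, or else the gene with the smallest p. Runx1, Cbfb, Prdm2, Fos and the other genes named outside this rule were chosen after their values were seen. Lengths (GENCODE M21) and promoters (RefSeq, GRCm38.p6) come from another build than mm9 and serve as descriptions.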

Additional observations from a re-analysis of the deposited data

How the results depend on the processing

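Over 14 alternatives, 104 of 140 log2 differences of the 10 factors kept both their direction and their side of the threshold, 26 lost a call, 5 gained one and 5 changed sign. For the 13 other genes named by rule these numbers were 130 of 182, 46, 6 and 0. The sign changes were in Eomes, whose difference was 0.090 without NKG2D+ replicate 1 and 0.078 without replicate 1 in both populations, and in Batf, at -0.12 without NKG2D+ replicate 1, -0.01 without NKG2D- replicate 2 and -0.047 without replicate 1 in both. With 1 library left out, the difference ranged from -0.49 to 0.090 for Eomes and from -0.12 to 0.20 for Batf, neither of which passed the test in any of these fits.

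Of the 10 factors edgeR called 3, and of the listed genes 8. With the replicate block (mouse) it called 0 factors and 4 listed genes, DESeq2 called 6 and 32, and limma-voom 0 and 4. Calls ran from 0 to 4 factors and from 0 to 30 listed genes with 1 library left out. Without replicate 1, 2 or 3 in both populations there were 1, 3 and 0 calls among the factors and 13, 13 and 0 among the listed genes, and over all genes 229, 354 and 0, with 971 at an unadjusted p under 0.05 in the last. Calls over all genes were 543 without NKG2D+ library 1, 1312 without NKG2D+ library 2 and 15 without NKG2D+ library 3. They were 21, 13 and 8 without NKG2D- library 1, 2 or 3. Why calls changed was not tested. RLE scaling and no filter on low counts each left 2 of the 3 called factors. Calls over all genes were 261 in the reported fit, 68 with the block, 1442 in DESeq2 and 83 in limma-voom. With 1 library left out, the log2 ratio difference ran from 0.20 to 0.83 for Tbx21 to Eomes, against 0.57 with all 6 libraries, and from 1.31 to 2.02 for Prdm1 to Tbx21, against 1.64.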
